A study of Saccharomyces cerevisiae with 24 samples.

Results

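The genes described here are the 30 members of 15 paralog pairs that code for small-subunit ribosomal proteins of budding yeast and carry an intron, among them RPS0, RPS4, RPS6, RPS7, RPS10, RPS16, RPS18, RPS19, RPS21, RPS23, RPS24, RPS27 and RPS30, each as an A and a B copy. They were taken by name from 270 intron-containing genes of the authors' long-read table that could be placed in the gene table, and all 30 were found. Nanopore long reads of chromatin-associated RNA came from Nab2-AA and from Control-AA, with 2 libraries each. Both carry tor1-1, fpr1Δ::loxP-LEU2-LoxP and RPL13A-2xFKBP12::LoxP-TRP1-LoxP. Nab2-AA is MATalpha and carries NAB2-FRB::HIS, and Control-AA is MATa with no FRB tag. Both were grown in YPAD at 30 °C and given rapamycin at 1 ug per ml for 10 min. In such an anchor-away strain rapamycin ties the FRB-tagged protein to a tagged ribosomal protein, which carries it out of the nucleus. Mating type differs together with the tag, so the 2 cannot be told apart, and the anchor, Rpl13a, is itself a ribosomal protein in both strains. A second assay, Single Molecule Intron Tracking (SMIT), listed 4 of the 30 genes: RPS27B in untreated deletion strains (Npl3-KO, Gbp2-KO, Rtt103-KO, Tho2-KO, Pub1-KO and Htz1-KO) and in the wild type (2 libraries each, MATa his3Δ1 leu2Δ0 met15Δ0 ura3Δ0, with the deletion marked by KanMX), and RPS0A, RPS11A, RPS17A and RPS27B in both anchor-away strains at 0, 10 and 30 min of rapamycin (1 library per strain and time).

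Ribosomal protein genes are among the most strongly transcribed genes of growing yeast, and although few yeast genes have introns, most genes of this family do. Splicing removes the intron largely while RNA polymerase II is still on the gene, and at the end of the gene the transcript is cleaved, given a poly(A) tail and released. Nab2 is a nuclear protein that binds poly(A) tails, limits their length and protects new transcripts from decay. The paralogs descend from a duplication of the whole genome and code for identical or nearly identical proteins, while their introns and untranslated regions have diverged.

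Depth was uneven: Nab2-AA had 32107 and 11485 long-read alignments, Control-AA 10042 and 14264, of which 6459, 2141, 2098 and 3068 overlapped one of the 30 genes, and 0 read names were shared between libraries. The labels do not say that the libraries of a strain came from separate cultures, so p-values rest on a spread among libraries that could be purely technical. Reads were amplified by PCR, so intervals of percentages and of SMIT changes cover counting error only. NAB2 and the 6 deleted genes are not among the genes counted in either assay, so their own RNA gave no check of the labels. Spliced reads of 2 paralogs differ at few positions, and reads could be placed on the wrong copy. At most 0.14% of the members' reads in a library had an alignment score under 20. Leaving out all reads with such scores changed none of the members' counts of edgeR calls. Over all genes, 58 of 193 were then called higher for ends, against 57 of 202.

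Each of the 30 genes had 1 intron, placed from alignment gaps in sacCer3 coordinates, and all lay inside the coding region. In 15 of 15 pairs the intron interrupted both paralogs after the same number of coding bases and left the same number after it. In 8 genes, among them both copies of RPS24, RPS27 and RPS30, it followed directly on the start codon, after 3 nt, while in RPS7A and RPS7B 144 nt of coding sequence preceded it. Intron length, in contrast, differed in every pair, by 13 to 199 nt. The shortest was that of RPS4A with 256 nt and the longest that of RPS19B with 551 nt, with a median of 401 nt.

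Whether splicing differed between Nab2-AA and Control-AA was asked first over all reads that span an intron. All long-read libraries were taken at 10 min of rapamycin. A difference between the strains that was there before rapamycin therefore cannot be told apart from one that followed it. Reads counted as spliced had a gap that met the intron at both ends to within 10 nt, and unspliced reads covered 90% of it. Summed over the 30 genes, 81.8% and 81.9% of spanning reads were spliced in Nab2-AA, against 88.7% and 88.9% in Control-AA, on 6359, 2095, 2076 and 3041 reads. The means were 81.8% ± 0.0509 and 88.8% ± 0.122 (SD, n = 2 each), a difference of -6.94 percentage points that was far larger than the spread within either strain. The exact two-sided permutation test gave p = 0.33, the smallest value that 2 against 2 libraries can give. In the other small-subunit ribosomal protein genes the difference was -16.4 points (6 introns), in large-subunit genes -8.09 (55 introns) and in other genes -10.8 (130 introns), and differences between these groups were not tested.

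Of the 30 introns, 29 had the 20 reads needed for a test, and RPS0B, with 13 spanning reads in all, did not. edgeR's quasi-likelihood test of strain by splicing state, adjusted over 204 introns, called 3 of 29 lower in Nab2-AA (RPS18A, RPS7A and RPS17A), a share of 10.3% beside 6.86% over all introns tested. It called 0 of 29 higher, with 9 lower and 0 higher at an unadjusted p under 0.05, and DESeq2 called 0 in either direction. Over all 204 introns, 37 were lower and 2 higher at that unadjusted p, and DESeq2 called 2 lower and 0 higher. The median difference was -5.47 percentage points over the 29 genes and -4.76 over all 204 introns. In 15 of the 29 both Nab2-AA libraries lay below both Control-AA libraries, and in 3 (RPS10B, RPS30A and RPS30B) both lay above. Over all 204 introns these counts were 85 and 21.

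RPS18A codes for a protein of the head of the small subunit that lies where both subunits meet. Its intron (YDR450W, chromosome IV, 1359970 to 1360404, forward strand) was spliced in 241 of 400 (60.2%) and 78 of 119 (65.5%) in Nab2-AA, against 67 of 86 (77.9%) and 134 of 165 (81.2%) in Control-AA. The means were 62.9% ± 3.74 and 79.6% ± 2.34 (SD, n = 2 each), and the fall passed the test (log2 odds ratio -1.31, SE 0.3, edgeR adjusted p = 0.000715). RPS17A, whose protein also sits in the head, had its intron (YML024W, chromosome XIII, 225892 to 226289, forward strand) spliced in 112 of 156 (71.8%) and 33 of 41 (80.5%) in Nab2-AA, against 35 of 40 (87.5%) and 45 of 48 (93.8%) in Control-AA. This was the largest called change on the odds scale (log2 odds ratio -1.82, SE 0.57, edgeR adjusted p = 0.0295). RPS7A, the gene with the most spanning reads (1548 over the 4 libraries), was spliced in 655 of 709 (92.4%) and 219 of 242 (90.5%) in Nab2-AA, against 215 of 221 (97.3%) and 363 of 376 (96.5%) in Control-AA (YOR096W, chromosome XV, 505938 to 506338, forward strand). The difference was small in percentage points and passed the test (log2 odds ratio -1.43, SE 0.39, edgeR adjusted p = 0.00841). RPS19B, whose protein is needed to mature the small-subunit rRNA, lay just outside the threshold (log2 odds ratio -1.15, SE 0.4, edgeR adjusted p = 0.0531), with 60% and 68.3% in Nab2-AA, against 86.5% and 73% in Control-AA. None of the 3 calls held with DESeq2 or once the spliced and unspliced counts were scaled separately, and each called 2 of all 204 introns lower. That scaling moved the median log2 odds ratio of all introns to -0.03, against -0.53 without it. Fits without Control-AA replicate 2, Nab2-AA replicate 1 or Control-AA replicate 1 leave 1 library in a strain. They lost calls among the members and over all introns.

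Splicing levels ranged widely among the 30 genes. In both strains 6 genes averaged above 90%: RPS0A, RPS4A, RPS4B, RPS6A, RPS6B and RPS7A. Rps6 is the protein of the subunit that is phosphorylated under nutrient signalling, and Rps0 binds beside Rps21. None of these 6 but RPS7A was called. RPS0A, for example, was spliced in 95% and 91.7% in Nab2-AA, against 96.4% and 94.8% in Control-AA, and the strains overlapped. At the low end, 3 genes averaged under 50% in both strains: RPS27A, RPS30A and RPS30B, coding for a zinc-finger protein and for a small basic protein of the body. RPS30B had 30 spanning reads in all, with 2 of 16 and 2 of 5 spliced in Nab2-AA, against 0 of 4 and 0 of 5 in Control-AA, where 95% exact intervals reach up to 60.2% and 52.2%. RPS0B was spliced in 3 of 4 (75%) and 2 of 2 (100%) in Nab2-AA, against 1 of 1 (100%) and 5 of 6 (83.3%) in Control-AA, too few to compare.

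**Figure D1:**
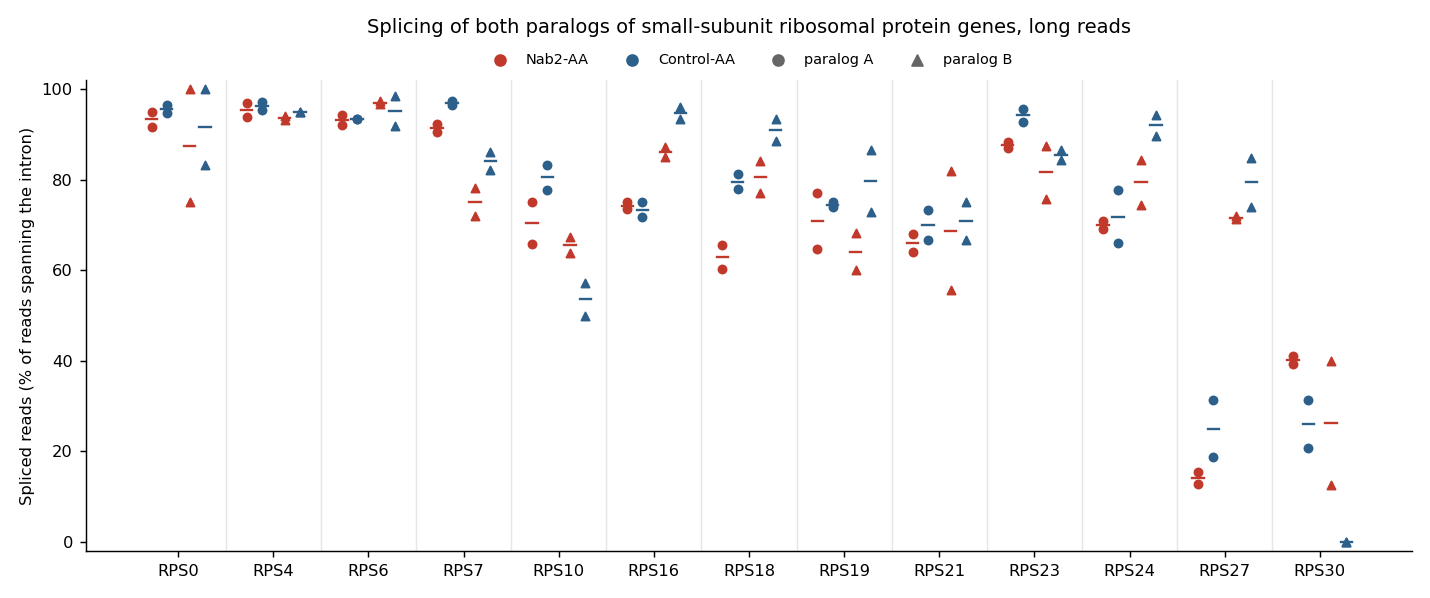
Percent of spanning reads that were spliced, for both paralogs of each pair drawn; each point is a library, bars are means of 2 libraries, circles are A copies and triangles B copies, Nab2-AA in red left of Control-AA in blue. RPS27A stands far below RPS27B in all 4 libraries, both RPS30 copies are low, and RPS4 and RPS6 copies lie above 90% in every library.

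The difference between the strains was then set beside the place where each read ended. Most reads of the 30 genes ended within 250 nt past the coding end, where the poly(A) sites of yeast genes usually lie. Reads that ended before the coding end were spliced in 57.6% and 50.7% in Nab2-AA, against 62.5% and 58.5% in Control-AA, with both Nab2-AA libraries lower and no test of this class. The spliced share of reads ending 1 to 250 nt past it was 94.7% and 95% in Nab2-AA, against 95.1% and 95.3% in Control-AA. For reads ending more than 250 nt past it, the spliced share was 31.8% and 32.3% in Nab2-AA, against 25% and 18.1% in Control-AA (434 of 1359 reads in Nab2-AA and 51 of 244 in Control-AA). Reads that had run past the end of the gene were thus mostly unspliced in both strains, and reads that ended 1 to 250 nt past it mostly spliced in both.

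When only reads that ended within 250 nt and were not joined to an upstream gene were kept, the 30 genes together were spliced in 92.1% and 92.6% of reads in Nab2-AA, against 92.1% and 92.7% in Control-AA. The means, 92.4% ± 0.363 and 92.4% ± 0.37 (SD, n = 2 each), differed by -0.04 points, less than the spread within a strain (exact permutation p = 0.667). Over the same reads the difference was -0.768 points in large-subunit genes, -8.56 in the other small-subunit genes and -7.43 in other genes. edgeR called 0 of the 28 members tested on these reads (0 at an unadjusted p under 0.05, with DESeq2 not run on these reads), beside 1.21% of 165 introns. The median difference was 0.267 points over these 28 and -0.521 over the 165. The spliced share of such reads of RPS18A was 86.3% and 85.9% in Nab2-AA, against 81.7% and 88.6% in Control-AA, with strains that overlap, and its log2 odds ratio of 0.02 had the opposite sign (edgeR adjusted p = 0.989). RPS7A had 96.8% and 95.9% in Nab2-AA, against 99.1% and 97.3% in Control-AA (log2 odds ratio -0.77, SE 0.52, edgeR adjusted p = 0.785), and RPS17A had 86.4% and 88.6% in Nab2-AA, against 89.5% and 93.6% in Control-AA (log2 odds ratio -0.73, SE 0.68, edgeR adjusted p = 0.788).

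**Figure D2:**
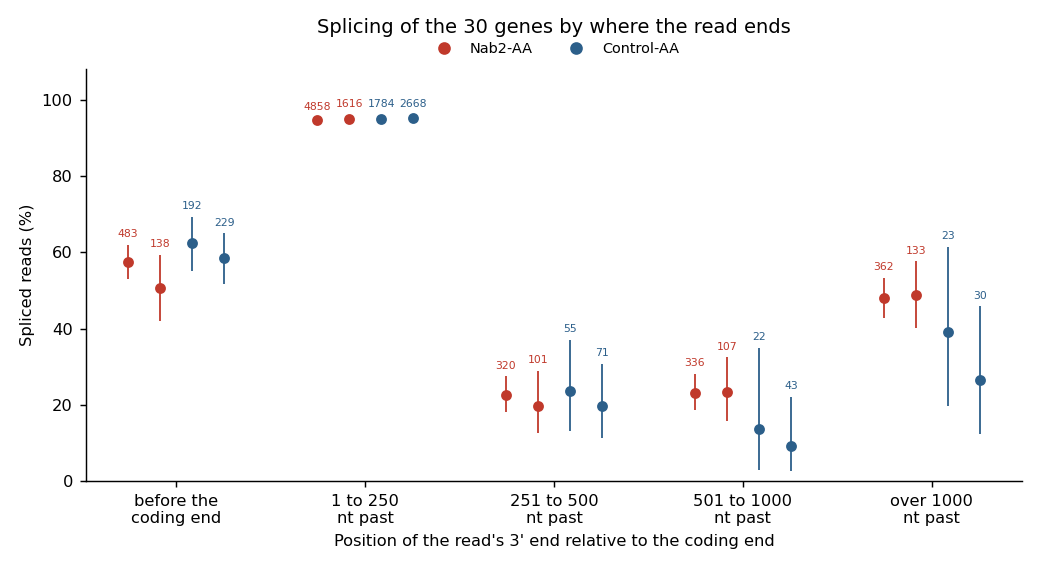
Percent of spanning reads of the 30 genes that were spliced, by the position of the 3' end relative to the coding end; each point is a library with its exact 95% interval and its number of reads, Nab2-AA left of Control-AA. The 4 libraries lie between 94.7% and 95.3% for reads ending 1 to 250 nt past the coding end, between 50.7% and 62.5% before it, and all fall below 50% farther downstream.

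**Figure D3:**
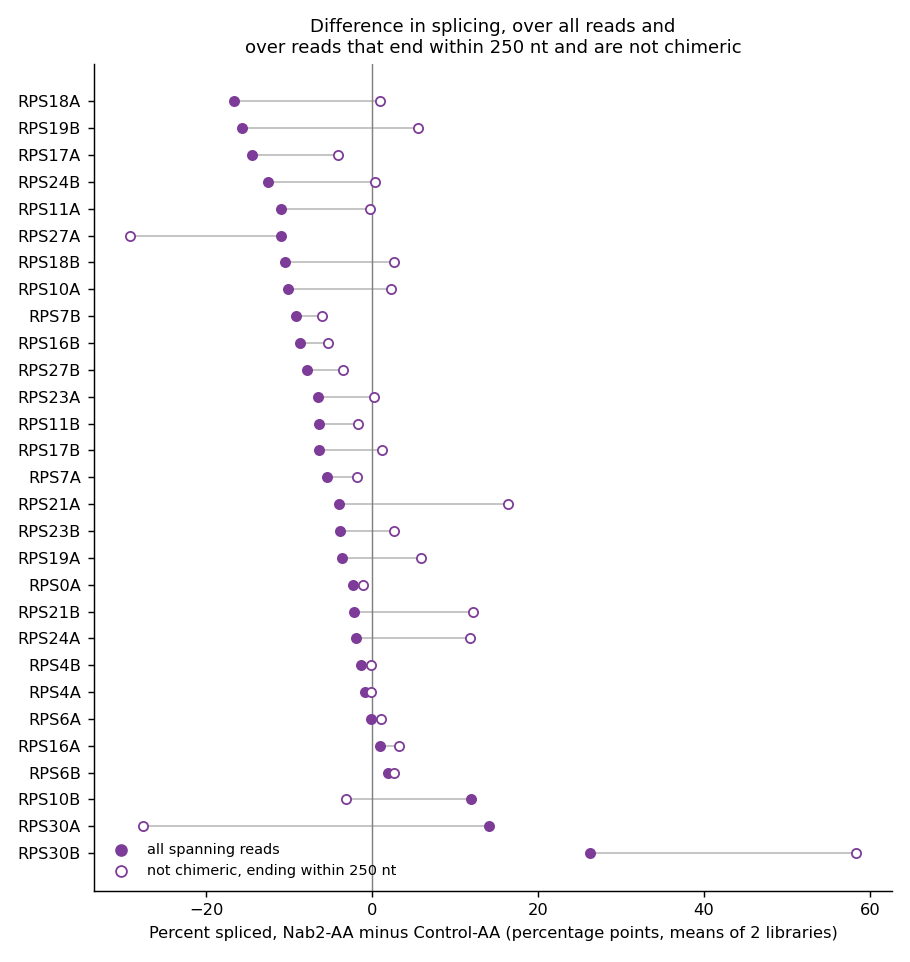
Difference in percent spliced, Nab2-AA minus Control-AA in percentage points (means of 2 libraries), for the 29 genes tested; filled circles use all spanning reads, open circles those that end within 250 nt and are not chimeric. RPS18A stands at -16.7 points over all reads and 0.972 over the selected ones, while RPS27A, RPS30A and RPS30B, which keep few such reads, move widely.

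Reads ending beyond the gene were themselves more frequent in Nab2-AA. The limit for this class was 250 nt: a read with its 3' end farther downstream of the coding end was counted in it. Summed over the 30 genes, 16.1% and 16.3% of reads ended there in Nab2-AA, against 4.86% and 4.76% in Control-AA (means 16.2% ± 0.152 and 4.81% ± 0.0728, SD, n = 2 each; exact permutation p = 0.33, the smallest possible). edgeR called 14 of the 29 genes tested higher in Nab2-AA, 48.3% beside 28.2% of all 202 genes tested, and 0 lower (16 higher and 0 lower at an unadjusted p under 0.05, 7 higher and 0 lower by DESeq2). Over all 202 genes, 74 were higher and 2 lower at that unadjusted p, with 23 higher and 0 lower by DESeq2. With at least 10 reads in each library, edgeR called 15 of 27 members higher, beside 62 of all 128 genes. The mean share was larger in Nab2-AA in 29 of 29, and in 22 of them the strains did not overlap. Over all 202 genes tested it was larger in 171, and in 123 the Nab2-AA libraries lay above without overlap. The median difference was 10.6 percentage points over the 29 and 9.49 over all genes tested.

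Among the proteins of the head, RPS18A had 154 of 406 (37.9%) and 41 of 119 (34.5%) in Nab2-AA, against 4 of 87 (4.6%) and 16 of 165 (9.7%) in Control-AA (log2 odds ratio 2.76, SE 0.29, edgeR adjusted p = 9.7e-07). Its paralog RPS18B had 32 of 192 (16.7%) and 8 of 70 (11.4%) in Nab2-AA, against 0 of 47 (0%) and 1 of 82 (1.22%) in Control-AA (log2 odds ratio 4.3, SE 0.75, edgeR adjusted p = 0.000208). RPS17A stood at 20.3% and 14.3% in Nab2-AA, against 4.88% and 2.04% in Control-AA (log2 odds ratio 2.69, SE 0.64, edgeR adjusted p = 0.00375). In none of these 3 genes did the strains overlap. RPS19B had 32.1% and 26.5% in Nab2-AA, against 9.43% and 9.09% in Control-AA (log2 odds ratio 2.1, SE 0.37, edgeR adjusted p = 0.000208). Its paralog RPS19A, at 2.44% and 4.88% in Nab2-AA, against 0% and 4.08% in Control-AA, overlapped and was not called. RPS10B, which codes for a protein at the beak of the head, had 180 of 239 (75.3%) and 60 of 81 (74.1%) in Nab2-AA, against 16 of 32 (50%) and 19 of 49 (38.8%) in Control-AA (log2 odds ratio 1.97, SE 0.33, edgeR adjusted p = 0.00013). Most reads of this gene thus ended beyond it in Nab2-AA.

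Among the proteins of the body and platform, RPS7A had 7.75% and 8.68% in Nab2-AA, against 1.8% and 0.796% in Control-AA (log2 odds ratio 2.85, SE 0.46, edgeR adjusted p = 0.000122). RPS23, part of the decoding centre, was called in both copies, RPS23A with 10.3% and 14.3% in Nab2-AA, against 3.45% and 3.08% in Control-AA (adjusted p = 0.00147, edgeR) and RPS23B with 16.3% and 13.6% in Nab2-AA, against 3.85% and 3.81% in Control-AA (adjusted p = 0.000642, edgeR). Neither copy overlapped between strains. RPS24 was likewise called in both copies, RPS24A with 26.2% and 38.2% in Nab2-AA, against 3.57% and 14.6% in Control-AA (adjusted p = 0.0169, edgeR) and RPS24B with 11.2% and 11.8% in Nab2-AA, against 1.72% and 0% in Control-AA (adjusted p = 0.00174, edgeR). Also called were RPS27B, with 15.8% and 15.6% in Nab2-AA, against 2.13% and 6% in Control-AA (adjusted p = 0.0295, edgeR), and RPS6A, with 1.23% and 1.38% in Nab2-AA, against 0% and 0% in Control-AA (adjusted p = 0.0333, edgeR). RPS6A rests on few reads, 6 of 489 and 2 of 145 in Nab2-AA against 0 of 156 and 0 of 214 in Control-AA, and the 3 reads that a count of 0 allows would be up to 0.811% of the Control-AA reads. A further 2 of the 14 called genes are not described.

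Genes not called included several with high shares in both strains. RPS30A had 84% and 81.5% in Nab2-AA, against 68.8% and 70.8% in Control-AA, RPS27A 75.4% and 67.9% in Nab2-AA, against 55.6% and 50% in Control-AA and RPS21A 51.4% and 44.8% in Nab2-AA, against 40% and 24% in Control-AA. Nab2-AA was the higher strain in each without overlap, on 40, 38 and 40 Control-AA reads. At the other end, RPS0A, RPS4A, RPS4B and RPS6B had at most 4.9% in any library. Of the other genes not called, RPS10A and RPS7B did not overlap between strains, at 16% and 22.2% in Nab2-AA, against 8.11% and 4.17% in Control-AA for RPS10A and 6.54% and 9.38% in Nab2-AA, against 2.22% and 6.06% in Control-AA for RPS7B, while RPS30B, RPS21B, RPS16A, RPS16B, RPS17B and RPS19A overlapped. RPS0B had 0 of 6 reads in Nab2-AA and 0 of 8 in Control-AA. The count of 14 fell to 7 with DESeq2 (23 of all 202 genes). It fell to 1 when the counts beyond and within were scaled separately (2 of 202). That scaling moved the median log2 odds ratio of all genes to -0.03, against 1.39 without it. Fits without Control-AA replicate 2, Control-AA replicate 1 or Nab2-AA replicate 1 leave 1 library in a strain. They lost calls among the members and over all genes, with median log2 odds ratios of all genes of 1.52, 1.41 and 1.22.

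**Figure D4:**
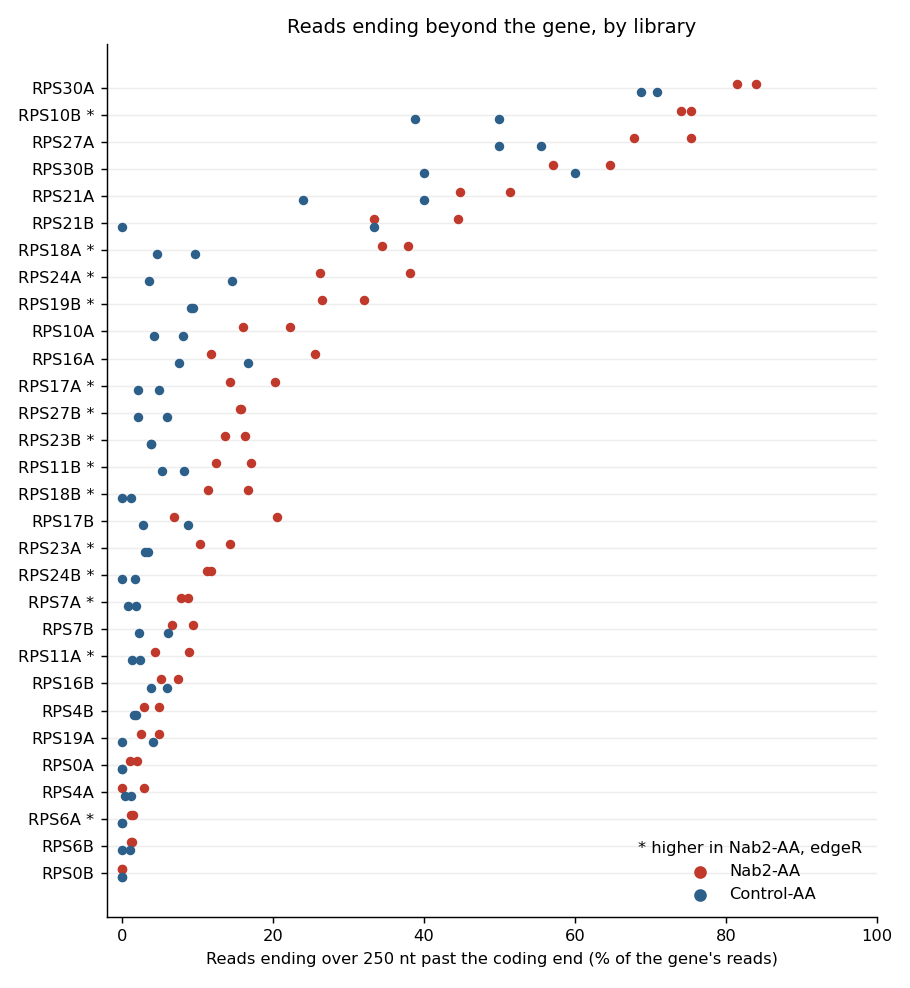
Percent of each gene's reads that end more than 250 nt past the coding end; each point is a library, Nab2-AA in red above Control-AA in blue, and an asterisk marks the 14 genes that edgeR called higher in Nab2-AA. Shares in Nab2-AA run between 0% in RPS0B and 84% in RPS30A.

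How far the reads ran, and whether they were spliced, differed from gene to gene. The median read of RPS10B ended 413 nt past the coding end in Nab2-AA and 114 nt past it in Control-AA, and its farthest ends lay at 4376 and 2603 nt. The next annotated coding region, YMR230W-A, starts 126 nt downstream on the same strand. Of the reads beyond RPS10B that spanned the intron, 144 of 237 reads in Nab2-AA and 3 of 35 in Control-AA were spliced. RPS10B was thus among the few genes with more spliced reads in Nab2-AA, at 67.2% and 63.8% in Nab2-AA, against 50% and 57.1% in Control-AA over all reads, but the change was not called (log2 odds ratio 0.73, SE 0.41, edgeR adjusted p = 0.294). The reads of RPS10B that ended within 250 nt, 65 of 78 reads in Nab2-AA and 41 of 46 in Control-AA, were mostly spliced.

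RPS30A, which codes for a small basic protein that mammals make fused to a ubiquitin-like protein, had a median read end 1070.5 nt past the coding end in Nab2-AA and 656 nt in Control-AA. YLR287C starts 478 nt downstream on the same strand, and 111 of 123 reads beyond RPS30A in Nab2-AA and 26 of 28 in Control-AA ended past its start. Those that spanned the intron were spliced in 49 of 120 reads in Nab2-AA and 2 of 28 in Control-AA. For RPS18A, RPS7A and RPS27A the next coding region lies on the opposite strand. Beyond RPS18A, 321 nt from YHP1, 37 of 192 reads in Nab2-AA and 2 of 20 in Control-AA were spliced. Beyond RPS7A, 210 nt from YOR097C, the spliced reads were 29 of 76 reads in Nab2-AA and 0 of 7 in Control-AA. Beyond RPS27A, 243 nt from RSM22, they were 5 of 61 reads in Nab2-AA and 2 of 20 in Control-AA. The spliced share of reads running beyond the gene was thus higher for RPS10B, RPS30A and RPS7A in Nab2-AA (60.8%, 40.8% and 38.2%) than for RPS18A and RPS27A (19.3% and 8.20%), and these shares were not tested.

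A read that also covers at least 50 nt of the upstream gene on the same strand was called chimeric. Of the reads of the 30 genes, 1.61% and 2.38% were chimeric in Nab2-AA, against 0.429% and 0.684% in Control-AA, 155 reads against 30. edgeR called 0 of the 29 genes tested, beside 0.99% of all 202 genes (2 of the 29 at an unadjusted p under 0.05, 0 by DESeq2). No chimeric read was found in any library for 15 of the 30 genes.

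Chimeric reads gathered at a few neighbours. RPL18B, a large-subunit gene, lies 626 nt upstream of RPS19B. Reads joined RPL18B to RPS19B in 17 of 190 (8.95%) and 7 of 68 (10.3%) in Nab2-AA, against 0 of 53 (0%) and 4 of 77 (5.19%) in Control-AA. Each Nab2-AA library lay above each Control-AA library. SES1, which codes for seryl-tRNA synthetase, lies 618 nt upstream of RPS11A and was joined to it in 19 of 125 (15.2%) and 4 of 46 (8.7%) in Nab2-AA, against 0 of 73 (0%) and 1 of 86 (1.16%) in Control-AA. RPS11A came nearest to the threshold (edgeR adjusted p = 0.0786). RLM1, a transcription factor of cell wall maintenance, was joined to RPS6A in 10 of 489 (2.04%) and 4 of 145 (2.76%) in Nab2-AA, against 3 of 156 (1.92%) and 5 of 214 (2.34%) in Control-AA, where the strains overlapped. YML6, a mitochondrial ribosomal protein gene, was joined to RPS18B in 13 of 192 (6.77%) and 1 of 70 (1.43%) in Nab2-AA, against 0 of 47 (0%) and 3 of 82 (3.66%) in Control-AA, where they overlapped too. Each of TRM2 with RPS21A (10 reads in Nab2-AA and 2 in Control-AA), ALD5 with RPS24A (7 and 1), SEC6 with RPS24B (7 and 0), MEC3 with RPS30A (5 and 0) and YNL095C with RPS7B (4 and 1) had few. A further 4 genes had 1 or 2 such reads. APE2 and RPS27A shared reads in 3 of 61 (4.92%) and 3 of 28 (10.7%) in Nab2-AA, against 3 of 18 (16.7%) and 4 of 20 (20%) in Control-AA, with the larger mean share in Control-AA. Of the chimeric reads of the 30 genes that spanned the intron of the ribosomal protein gene, 6 of 90 reads in Nab2-AA and 1 of 15 in Control-AA were spliced.

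The 2 copies of a gene were then compared with each other within each library. Of 15 pairs, 14 had enough reads for edgeR's test of paralog by splicing state, averaged over the strains, and it called 9 of 14, beside 72.5% of all 40 ribosomal protein pairs tested. The A copy was spliced less than the B copy in 5 of the 9 called pairs and more in 4. The median absolute difference over the 14 pairs was 11 percentage points. In 6 of the 9 called pairs the difference had the same sign in all 4 libraries. The calls of RPS7, RPS16, RPS18 and RPS27 held under each alternative run for them. RPS6 was not called with DESeq2, without Nab2-AA replicate 1, without Control-AA replicate 2, or among reads that are not chimeric and end within 250 nt (adjusted p 0.131 with DESeq2, and 0.0546 to 0.405 with edgeR under the others). The call was also lost for RPS23 without Nab2-AA replicate 1, for RPS24 without Control-AA replicate 2, for RPS10 without Nab2-AA replicate 2 and among those reads, and for RPS30 without Control-AA replicate 1 or without Control-AA replicate 2.

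RPS27 had the widest gap. RPS27A (YKL156W) was spliced in 12.7% and 15.4% in Nab2-AA, against 18.8% and 31.2% in Control-AA. RPS27B (YHR021C) was spliced in 71.3% and 71.9% in Nab2-AA, against 84.8% and 74% in Control-AA. The copies differed in every library (log2 odds ratio A over B -3.71, SE 0.43, edgeR adjusted p = 2.07e-14), and RPS27A also had the larger share of reads ending beyond the gene. RPS16, a protein of the head whose tail reaches the tRNA in the P site, came next among pairs with the A copy lower. RPS16A (YMR143W) was spliced in 75% and 73.5% in Nab2-AA, against 75% and 71.7% in Control-AA. RPS16B (YDL083C) was spliced in 85% and 87.2% in Nab2-AA, against 96.1% and 93.4% in Control-AA. No A value reached the B value of its own library (log2 odds ratio A over B -1.8, SE 0.36, edgeR adjusted p = 3.99e-06). In RPS24 and RPS18 the A copy was also lower in all 4 libraries. RPS24A (YER074W) was spliced in 69.1% and 70.8% in Nab2-AA, against 77.8% and 66% in Control-AA. RPS24B (YIL069C) was spliced in 84.4% and 74.5% in Nab2-AA, against 89.7% and 94.3% in Control-AA. The difference passed the test (log2 odds ratio A over B -1.64, SE 0.35, edgeR adjusted p = 1.65e-05). RPS18A (YDR450W) was spliced in 60.2% and 65.5% in Nab2-AA, against 77.9% and 81.2% in Control-AA. RPS18B (YML026C) was spliced in 77% and 84.1% in Nab2-AA, against 93.5% and 88.6% in Control-AA. The same holds for RPS18 (log2 odds ratio A over B -1.22, SE 0.25, edgeR adjusted p = 7.31e-06). RPS6A was lower than RPS6B by a small margin, in 3 of 4 libraries (log2 odds ratio A over B -0.93, SE 0.34, edgeR adjusted p = 0.0129), with 92.1% and 94.4% in Nab2-AA, against 93.5% and 93.4% in Control-AA for RPS6A and 96.6% and 97.4% in Nab2-AA, against 91.8% and 98.5% in Control-AA for RPS6B.

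The A copy was spliced more in RPS7, RPS23, RPS10 and RPS30. RPS7A (YOR096W) was spliced in 92.4% and 90.5% in Nab2-AA, against 97.3% and 96.5% in Control-AA. RPS7B (YNL096C) was spliced in 72% and 78.1% in Nab2-AA, against 82.2% and 86.2% in Control-AA. RPS7A, the better spliced, had 1548 spanning reads and RPS7B 249 (log2 odds ratio A over B 2.26, SE 0.32, edgeR adjusted p = 2.36e-10). RPS23A (YGR118W) was spliced in 87.1% and 88.4% in Nab2-AA, against 95.7% and 92.8% in Control-AA. RPS23B (YPR132W) was spliced in 75.7% and 87.5% in Nab2-AA, against 84.4% and 86.5% in Control-AA. RPS23A was higher in all 4 libraries (log2 odds ratio A over B 1.13, SE 0.26, edgeR adjusted p = 5.61e-05). RPS10A (YOR293W) was spliced in 65.8% and 75% in Nab2-AA, against 77.8% and 83.3% in Control-AA. RPS10B (YMR230W) was spliced in 67.2% and 63.8% in Nab2-AA, against 50% and 57.1% in Control-AA. The difference held in 3 of 4 libraries (log2 odds ratio A over B 0.94, SE 0.33, edgeR adjusted p = 0.00878), and among reads that end within 250 nt and are not chimeric it was -0.13 on the log2 scale (edgeR adjusted p = 0.836). RPS30A was higher than RPS30B (log2 odds ratio A over B 2.76, SE 1.07, edgeR adjusted p = 0.0171), with 41.1% and 39.2% in Nab2-AA, against 31.2% and 20.8% in Control-AA for RPS30A. This rests on 30 spanning reads of RPS30B, 0 of which were spliced in Control-AA, so the fitted size is no bound.

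The other 5 pairs tested did not pass, and 95% intervals of the log2 odds ratio, A over B, included -0.19 to 0.93 for RPS4, -0.36 to 0.84 for RPS19 and -1.49 to 0.67 for RPS21. For all 5 pairs the data do not settle whether the copies differ. RPS0 could not be tested because RPS0B had 13 spanning reads. Among reads that end within 250 nt and are not chimeric, 6 of 13 pairs were called. Of all 39 ribosomal protein pairs tested on these reads, 9 were called with the A copy lower and 8 with it higher. The copy with the larger share of reads ending beyond was spliced less in 11 of 15 pairs (7 of the 9 called), and the copy with the longer intron was spliced more in 7 of 15.

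Whether the difference between the strains was itself different in the 2 copies was tested by the interaction of paralog, strain and splicing state. edgeR called 0 of the 14 pairs, beside 2.5% of all 40 pairs (2 of the 14 at an unadjusted p under 0.05, 0 by DESeq2). RPS10 came nearest (edgeR adjusted p = 0.183), with a change of -10.1 percentage points in RPS10A and 11.9 in RPS10B, Nab2-AA minus Control-AA. RPS16 followed (edgeR adjusted p = 0.222), with 0.916 points in RPS16A and -8.67 in RPS16B. In 11 of 15 pairs both copies had fewer spliced reads in Nab2-AA.

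SMIT sequences nascent transcripts from their 3' end, the position of the polymerase, so that splicing can be read against distance from the 3' splice site. Here a gene's fraction spliced is the mean of raw fractions, without the authors' correction, over 30 nt bins of at least 10 reads. Among these 30 genes only RPS27B was tested in the deletion strains, on 40200 to 116303 reads per library. Npl3 and Gbp2 are RNA-binding proteins of mRNA packaging and export, Tho2 belongs to the THO complex of transcription and export, Rtt103 binds the polymerase tail at gene ends, Pub1 binds U-rich RNA, and Htz1 is the histone variant H2A.Z. The fraction spliced of RPS27B was 0.959 and 0.996 in Npl3-KO, 0.975 and 0.998 in Gbp2-KO and 0.976 and 0.999 in Rtt103-KO (replicates 1 and 2). It was 0.992 and 0.999 in Tho2-KO, 0.974 and 0.999 in Pub1-KO and 0.972 and 0.997 in Htz1-KO, against 0.992 and 0.998 in WT. Replicate 1 was below replicate 2 in all 7 strains, and the SD of the 2 replicates was 0.00485 to 0.0262 in the deletion strains and 0.00428 in WT. Means differed from WT by -0.0169 in Npl3-KO, -0.0104 in Htz1-KO, -0.00847 in Pub1-KO, -0.00837 in Gbp2-KO, -0.00706 in Rtt103-KO and 0.000491 in Tho2-KO. Each difference was smaller than the SD of its own deletion strain, and all but that of Tho2-KO were larger than the SD of WT. With the authors' corrected fractions WT had 0.92 and 0.964, and only the difference of Npl3-KO was below 0.

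edgeR called RPS27B in 0 of 6 strains, beside 0% of 48 genes in each (adjusted p between 0.895 and 1). At an unadjusted p under 0.05 it was 0 of 6, and by DESeq2 0 of 6. This edgeR fit had no replicate term. The SE of its log2 odds ratios was 2 to 2.14, so large differences could be missed. With the replicate number as a block the SE was 0.516 to 0.519, and no strain was called. Npl3-KO then had a log2 odds ratio of -1.31 (edgeR unadjusted p = 0.0307, adjusted p = 0.164). The first replicates of the deletion strains came from a sequencing run named differently from that of WT replicate 1, while all second replicates share a run. Within that run the deletion strains differed from WT by -0.00146 to 0.00144, 1 library a strain and without a test.

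In the anchor-away time course, 1 library per strain and time, the labelled times were 0, 10 and 30 min of rapamycin. RPS11A, whose protein sits in the body of the subunit, had the fractions 0.989, 0.982 and 0.977 in Nab2-AA, against 0.992, 0.991 and 0.989 in Control-AA at 0, 10 and 30 min. The change since 0 min, Nab2-AA minus Control-AA, was -0.00924 (95% counting interval -0.021 to 0.00256), an interval that includes 0. When only bins of at least 100 reads were kept, a choice made after the data were seen because thin far bins were low, the difference was -0.00481. At 30 min it was -0.0266 with the authors' corrected fractions, -0.00465 with 10 nt bins and -0.00456 over summed reads. In the first 30 nt past the 3' splice site the fraction was 0.947 in Nab2-AA and 0.963 in Control-AA already at 0 min, 0.94 in Nab2-AA and 0.962 in Control-AA at 10 min, and 0.94 in Nab2-AA and 0.954 in Control-AA at 30 min. RPS17A stayed between 0.998 and 0.999 in all 6 libraries. RPS0A, without a value for Nab2-AA at 30 min, had 0.998 and 0.998 in Nab2-AA at 0 and 10 min, against 0.999 and 0.999 in Control-AA. RPS27B was at 0.999 or above throughout. These levels are raw. The authors' corrected fractions were lower, at 0.968 to 0.973 in RPS17A, 0.975 to 0.991 in RPS0A and 0.986 to 0.994 in RPS27B. SMIT fractions are means over all bins past the 3' splice site with at least 10 reads and are not set against the long-read percentages.

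**Figure D5:**
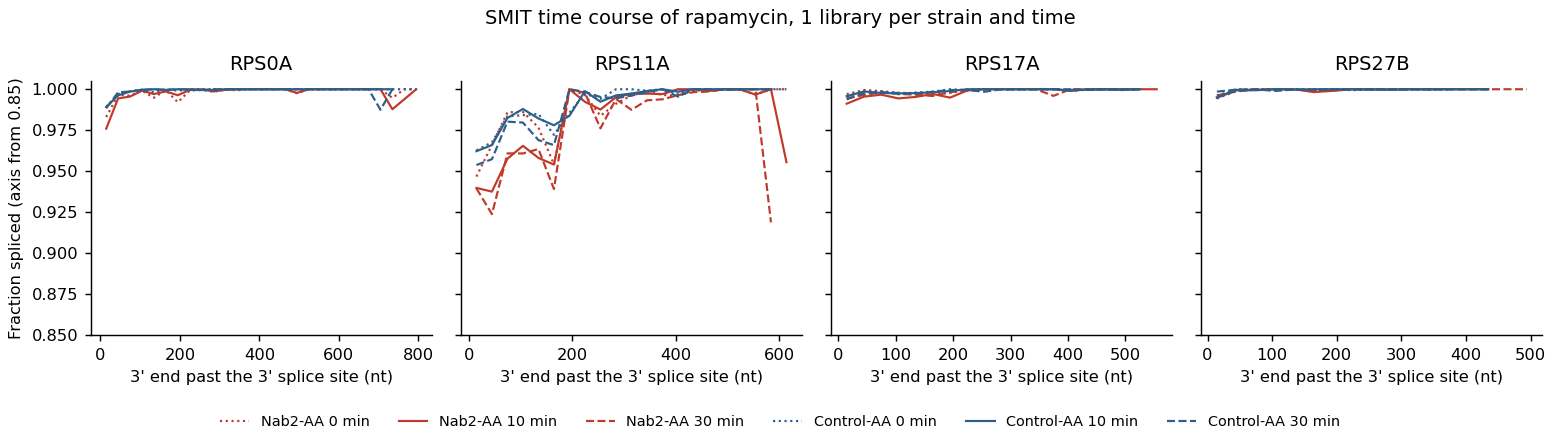
SMIT fraction spliced of RPS0A, RPS11A, RPS17A and RPS27B by distance of the 3' end past the 3' splice site (nt, 30 nt bins of at least 10 reads); lines are single libraries, Nab2-AA red and Control-AA blue, dotted, solid and dashed for 0, 10 and 30 min, and the fraction axis starts at 0.85. In RPS11A the Nab2-AA lines of 10 and 30 min lie lowest in the first bins. They drop again in far bins of 45 and 37 reads. Lines of the other genes lie near 1 almost throughout, and all fractions drawn are raw.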

How the data were processed

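Long-read RNA from chromatin was measured in 4 libraries and SMIT in 20. The submitters' processing notes name HISAT2 2.1.0, cutadapt 1.9.1, minimap2 2.17, SAMtools 1.9, bedtools 2.29.2 and sacCer3, with no role or order, and the read filters are not given in the sources used here. Per the labels' protocols, RNA was depleted of poly(A) RNA, long-read RNA also of rRNA, and libraries were amplified by PCR. The authors deposited long-read alignments as BED blocks with coordinates and an alignment score, a table of the fraction spliced per gene, SMIT read counts per gene and position with raw and corrected fractions, and difference scores whose scale is not stated in the file headers and which were not used.

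From the BED blocks, introns were placed at gaps of at least 50 nt in 3 or more reads, giving 221 introns in 217 genes. The fractions so counted differed from the authors' table by a median of 0.595 to 1.35 percentage points per library. Read states were tested with edgeR 4.0.16 (quasi-likelihood, 1 term per library, at least 20 reads over the 4 libraries, Benjamini-Hochberg at 0.05 over all features tested), DESeq2 1.42.0 being the alternative, in R 4.3.3. Python 3.11.15, pandas 2.3.3, SciPy 1.17.1 and matplotlib 3.10.9 did the rest. The edgeR fits were tested on simulated data. Intervals of percentages are exact 95% binomial ones, which cover counting error only, and 3 counts set the limit for a count of 0. Those of log2 odds ratios were built from the SE of the edgeR fit, which includes the spread among libraries. The interval of the SMIT change was built from its counting SE. SMIT tests used genes with at least 20 reads in every library. The rule for named genes took those called in any fit, both copies of called pairs, the genes with the most and fewest reads and genes with SMIT rows, not all of them with every value. The members and lists were chosen with earlier results of these data known. Same-numbered libraries of the 2 strains did not deviate together (r = -0.218 over 129 introns), so numbers were not used to pair them. No sequences are shown because the reference supplied was a table of gene names and coordinates. Some pairs, called genes and neighbouring genes are not reported here.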

Additional observations from a re-analysis of the deposited data

How the results depend on the processing

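Over 426 alternatives to 40 results, the paralog by strain, chimeric and SMIT call counts were 0 under each setting run. The 9 paralog calls became 8 with DESeq2, 8 with at least 10 reads in each library, 6 among reads that are not chimeric and end within 250 nt, and 6 to 8 when a library was left out. The median SMIT difference at 30 min was -0.000468 and ran between -0.00299 and -0.000496 over its alternatives. The 3 splicing calls became 0 with DESeq2, 0 with separate scaling of the state columns and 0 among reads that are not chimeric and end within 250 nt. They became 4 of 27 with at least 10 reads in each library (16 of all 129 introns). With a splice tolerance of 5 nt they were 4 of 29 (15 of 204), and with an unspliced cover of 50% 2 of 29 (10 of 205). Fits with a library left out, which leave 1 library in a strain, called fewer members and fewer introns. The 14 calls for ends beyond became 7 with DESeq2, 1 with separate scaling, 7 with a limit of 100 nt and 7 with a limit of 500 nt. Over all 202 genes the calls higher were 23, 2, 28 and 30 in the same order. Most fits with a library left out, which leave 1 library in a strain, also called fewer members. With at least 10 reads in each library the calls for ends beyond were 15 of 27 members, beside 62 of all 128 genes. The pooled difference of -6.94 points became -0.04 among reads that are not chimeric and end within 250 nt and -4.05 as a mean over introns. In long reads the direction turned among those reads for RPS18A splicing (0.0157) and the RPS10 paralog difference (-0.13). It also turned for RPS11B ends (-0.14) under separate scaling. The causes were not tested, except that separate scaling removes by construction the shift common to all genes.

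With the replicate number as a block, 2 splicing calls, 12 end calls, 0 chimeric calls, 9 paralog calls and 0 paralog by strain calls were made. Over all features tested, 7 introns were called lower for splicing and 48 genes higher for ends. RPS27B in Npl3-KO had an edgeR adjusted p of 0.164 (unadjusted 0.0307). With crossed numbers, tried after the data were seen, the counts were 0, 12, 0, 9 and 0. Over all features tested, 1 intron was then called lower for splicing and 58 genes higher for ends. Leaving out the same replicate of every strain leaves the SMIT deletion test no residual degrees of freedom. In 14 fits with 1 library left out, added after the data were seen and assuming that the lone library varies like the other strains, RPS27B was called 0 times (edgeR adjusted p 0.524 to 1). With the authors' corrected fractions the RPS27B difference from WT turned from below 0 to above it in several strains. It became 0.0122 in Htz1-KO, 0.0185 in Pub1-KO, 0.0273 in Rtt103-KO and 0.00674 in Gbp2-KO. In Tho2-KO, where it was above 0 before, it became 0.0417, and in Npl3-KO it stayed below 0, at -0.0109. Depth limits RPS0B and RPS30B most, with 13 and 30 spanning reads.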

Other observations

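RPS10B made up 3.7% and 3.78% of all reads of the 30 genes in Nab2-AA, against 1.53% and 1.6% in Control-AA. RPS30A made up 1.46% and 2.52% of all reads of the 30 genes in Nab2-AA, against 0.763% and 0.782% in Control-AA. Among reads ending within 250 nt the shares were closer, at 1.09% and 1.17% in Nab2-AA, against 0.802% and 1.03% in Control-AA for RPS10B, and 0.277% and 0.558% in Nab2-AA, against 0.251% and 0.24% in Control-AA for RPS30A. In both genes each Nab2-AA library lay above each Control-AA library. These shares were not tested across genes.

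Of 13766 reads of the 30 genes, 14 held a gap other than the intron placed here.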
